A study of Drosophila melanogaster with 16 samples.

Results

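The synaptic release genes brp, Syt1, nSyb, Syx1A, Snap25, cpx, Rim and unc-13 and the transmitter genes VGlut and Gad1 were followed in whole Drosophila melanogaster embryos. These 10 genes, of the 17753 in the deposited tables, were chosen by name for their roles at the synapse, and all 10 were found by their FlyBase identifiers. Each was detected in every library, and all 10 passed the filter on low counts in both fits described below.

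Neurons release transmitter when a vesicle held at the active zone fuses with the plasma membrane. Fusion is driven by SNARE proteins: neuronal synaptobrevin (nSyb) on the vesicle pairs with Syntaxin 1A (Syx1A) and Snap25 on the plasma membrane. Complexin (cpx) binds the assembled SNAREs, Synaptotagmin 1 (Syt1) is the calcium sensor, and unc-13 primes vesicles for fusion. Bruchpilot (brp) and Rim are scaffold proteins of the active zone. VGlut loads glutamate, the transmitter of fly motor neurons, into vesicles, and Gad1 makes the inhibitory transmitter GABA. In the fly embryo most of these genes come on as neurons differentiate, whereas Syx1A also serves membrane traffic in other cells and is supplied to the egg by the mother.

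Polyadenylated RNA was sequenced from whole embryos in 16 libraries. ORE50/ORC4 embryos (n = 4) and ORC4 embryos (n = 4) were mutants of Lola-I, a zinc-finger transcription factor isoform encoded by lola, and were 14 to 17 h old. ORE50/ORC4 is transheterozygous, with a different mutant allele on each homologue; for ORC4 the labels give that name and not how many mutant copies the embryos carried. They were set against wild-type OregonR embryos, a standard laboratory strain, of the same age (n = 5), and that wild type was set against wild-type embryos of 2 to 4 h (n = 3). All groups are whole embryos, so neurons are only some of the cells measured, and the labels do not say whether replicates were separate collections; p-values then measure only the spread between these samples.

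Estimated counts per library totalled 9025882 to 13226262 in ORE50/ORC4, 27298377 to 28832013 in ORC4, 10202584 to 32521626 in late wild type and 14472809 to 31783930 in early wild type. ORC4 libraries were all deep and ORE50/ORC4 libraries all shallow; late wild-type replicates 1, 2 and 3 were deep and replicates 5 and 6 shallow. The lola gene averaged 29.9 ± 4.7 TPM in ORE50/ORC4, 49.7 ± 9.7 in ORC4 and 42.2 ± 4.3 in late wild type (SD, n = 4, 4 and 5). Its log2 fold change against wild type was -0.42 in ORE50/ORC4 (edgeR adjusted p = 0.0117) and 0.17 in ORC4 (edgeR adjusted p = 0.31). All lola isoforms share 1 value, so this does not check the Lola-I isoform. Of the 8 neuron markers, none was at 0 in every library of a group, and their summed level was 165 to 235 TPM in ORE50/ORC4, 193 to 205 in ORC4, 212 to 250 in late wild type and 38.9 to 39.2 in early wild type.

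Levels are given as TPM, an abundance scaled for length and library size, as deposited. The length used for it is the whole gene span with its introns, which matters for comparing one member with another. Snap25 (FBgn0011288, 3L, 24074180 to 24299205, plus strand) spans 225026 bases, of which 1.01% is exonic, so its TPM is the lowest of the 10 in late wild type although its estimated counts were 777 to 2675 per library there. Counts scaled to the library total (CPM) and divided by the kilobases of exon were therefore used to order the members. Reads in introns can be among the counts, and this scale then places a gene with little exon too high. Snap25 has the smallest exonic share of the 10, so its place in the order is the least certain.

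On that exonic scale nSyb stood first in late wild type, at 73.4 ± 4.1 (SD, n = 5). The next were cpx at 57.5 ± 3.6, Syt1 at 50.7 ± 2.2 and Gad1 at 48.8 ± 5.5 (SD, n = 5 each). nSyb stood clear of cpx and cpx of Syt1 by more than either SD, while Syt1 and Gad1 differed by less than their spread. Snap25 at 36.2 ± 3.4, Syx1A at 33.7 ± 1.8, unc-13 at 28.1 ± 0.86, brp at 27.2 ± 1.3, VGlut at 26.5 ± 0.51 and Rim at 14.3 ± 1.6 followed (SD, n = 5 each). Snap25 and Syx1A differed by less than the SD of Snap25. The steps from unc-13 to brp and from brp to VGlut were each smaller than the SD of brp, while the steps from Syx1A to unc-13 and from VGlut to Rim were larger than the SD of either gene. In the mutants nSyb was far down this order, at rank 8 of 10 in ORE50/ORC4 with 23.4 ± 2.9 and at rank 7 in ORC4 with 27.4 ± 2.6 (SD, n = 4 each). The gene at rank 1 was then cpx, at 48.3 ± 7.3 in ORE50/ORC4 and 54.5 ± 6.5 in ORC4 (SD, n = 4 each).

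Of the 10 members, 5 were called lower and 1 higher in ORE50/ORC4 at an edgeR adjusted p under 0.05, against a background of 27.0% of all genes called lower and 27.0% called higher. These were nSyb, unc-13, Gad1, Syx1A and Syt1 on the low side and Snap25 on the high side. In ORC4, 3 were called lower and 1 higher, against a background of 17.2% lower and 15.5% higher, and these were nSyb, unc-13 and Gad1 on the low side and Snap25 on the high side. Both comparisons share the same wild-type libraries. The median log2 fold change of the members was -0.25 in ORE50/ORC4 and -0.08 in ORC4, where that of all genes tested was 0.01 in ORE50/ORC4 and 0.004 in ORC4. Libraries did not overlap with wild type, on the low side, for 5 members in ORE50/ORC4 (background 25.0%) and 3 in ORC4 (background 13.7%). On the high side this held for 0 members in ORE50/ORC4 (background 14.3%) and for 2, Snap25 and Rim, in ORC4 (background 14.2%). The calls over all genes in ORE50/ORC4 were 3087 lower and 3083 higher here, and 3522 lower and 2164 higher with limma on log2(TPM + 1).

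**Figure D1:**
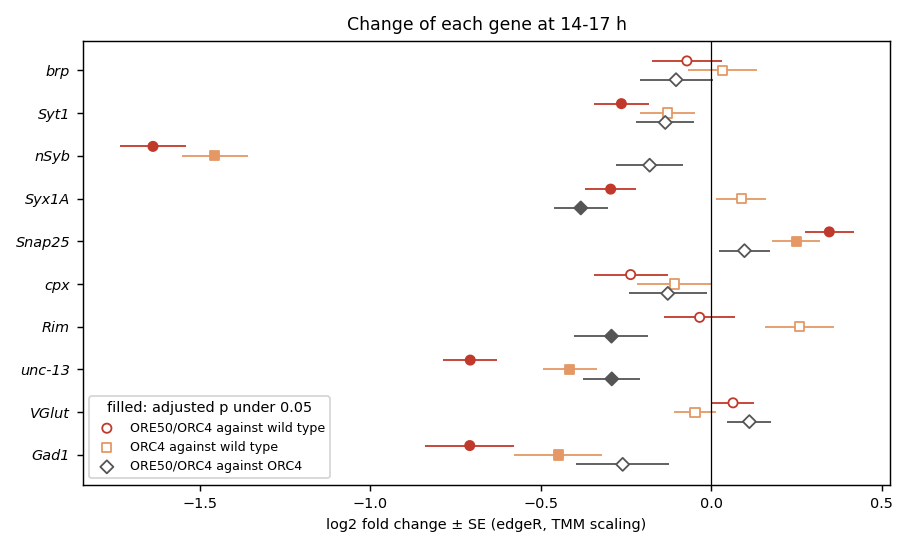
Log2 fold change (x axis) of each gene against late wild type in ORE50/ORC4 and ORC4, and of ORE50/ORC4 against ORC4, with bars of ± SE; filled points passed an edgeR adjusted p under 0.05. nSyb stands apart at -1.64 in ORE50/ORC4 and -1.46 in ORC4, and Snap25 is the gene called higher in both.

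Neuronal synaptobrevin was the member with the greatest difference between mutant and wild type. nSyb (FBgn0013342, 3L, 1630348 to 1637752, minus strand) was at 22.6, 33.0, 29.1 and 28.3 TPM in ORE50/ORC4 replicates 1 to 4, and at 38.5, 33.1, 36.3 and 33.7 TPM in ORC4 replicates 1 to 4, against 99.6, 86.7, 90.1, 91.9 and 96.8 TPM in late wild-type replicates 1, 2, 3, 5 and 6. Every mutant library lay far below every wild-type library of that age. The estimated counts behind these values were 943 to 1352 in ORE50/ORC4, 2802 to 3563 in ORC4 and 3065 to 9589 in late wild type. nSyb fell in ORE50/ORC4 with a log2 change of -1.64 (SE 0.098, 3.11-fold lower, edgeR adjusted p = 5.5e-08). It fell in ORC4 with a log2 change of -1.46 (SE 0.097, 2.74-fold lower, edgeR adjusted p = 1.42e-07).

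Whole embryos were measured, so fewer cells expressing a gene and less RNA per cell cannot be told apart, for nSyb or any other member. Of all genes tested, 7.09% had a log2 fold change as low as that of nSyb in ORE50/ORC4 and 4.59% in ORC4. Compared within a depth class, the nSyb log2 fold change was -1.69 for ORE50/ORC4 against wild-type replicates 5 and 6 (edgeR adjusted p = 6.32e-06) and -1.42 for ORC4 against replicates 1, 2 and 3 (edgeR adjusted p = 5.54e-06). These fits left out only the other wild-type replicates, so both mutants still shared in the estimate of the spread. The annotation puts no other gene within the nSyb span, and none of its counts was fractional.

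nSyb was also set against the other 9 members within each library. Their geometric mean was 13.2, 19.2, 15.7 and 15.9 TPM in ORE50/ORC4 and 20.0, 18.9, 20.2 and 19.5 TPM in ORC4, against 20.8, 19.7, 19.4, 19.1 and 19.0 TPM in late wild type. ORE50/ORC4 replicates 1, 3 and 4 lay below the rest, and the other late libraries lay within a narrow band. The ratio of nSyb TPM to the geometric mean of the other 9 members was 1.77 ± 0.063 in ORE50/ORC4 (1.71 to 1.85, SD, n = 4) and 1.8 ± 0.086 in ORC4 (1.73 to 1.92, SD, n = 4), against 4.75 ± 0.25 in late wild type (4.39 to 5.09, SD, n = 5). The ratios in the mutant libraries overlap each other and lie below every late wild-type ratio. In early wild type, where several members rested on few counts, the ratio was 2.55 ± 0.61 (SD, n = 3). These ratios are a description with no test.

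**Figure D2:**
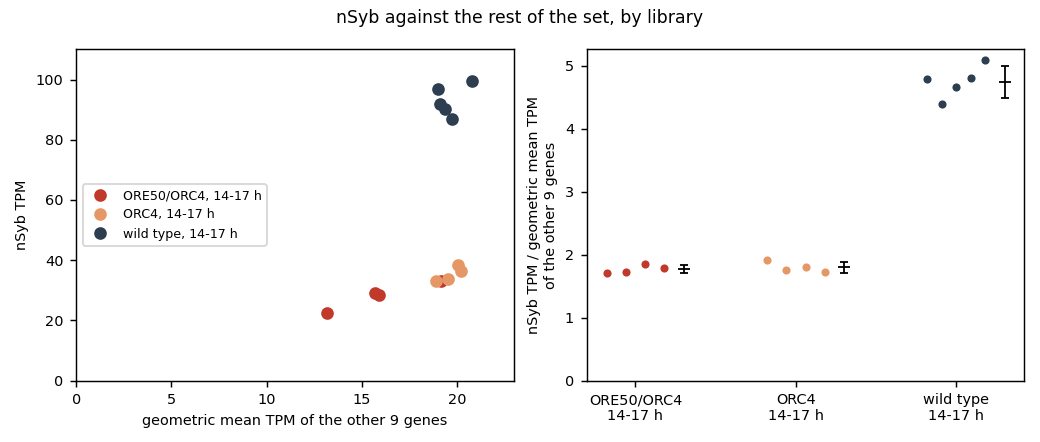
Left, nSyb TPM (y axis) against the geometric mean TPM of the other 9 genes (x axis), 1 point per library aged 14 to 17 h. Right, the ratio of both (y axis, no unit) per library, with the mean ± SD: the ORE50/ORC4 libraries lie between 1.71 and 1.85 and the ORC4 libraries between 1.73 and 1.92, all below the wild-type libraries, which lie between 4.39 and 5.09.

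Genes chosen by position, those beside nSyb on the chromosome, were not called lower in either mutant. GC, whose span ends 1047 bases away on one side, had a log2 fold change of 0.63 in ORE50/ORC4 (edgeR adjusted p = 0.000534) and 0.28 in ORC4 (edgeR adjusted p = 0.0728). Mettl2, 190 bases away on the other side, had 0.34 in ORE50/ORC4 (edgeR adjusted p = 0.00162) and 0.06 in ORC4 (edgeR adjusted p = 0.547). Syb, the synaptobrevin of general membrane traffic, rose in ORE50/ORC4 by 0.35 on the log2 scale (edgeR adjusted p = 0.000724) and was at 0.08 in ORC4 (edgeR adjusted p = 0.372). Syb is named here after its values were seen, as the family member nearest in role.

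Of the plasma membrane SNAREs, Syx1A was called lower in ORE50/ORC4 and Snap25 higher in both mutants. Syx1A (FBgn0013343, 3R, 24101600 to 24105763, minus strand) was at 53.0, 78.3, 55.4 and 59.0 TPM in ORE50/ORC4 replicates 1 to 4, and at 84.3, 90.6, 85.3 and 92.6 TPM in ORC4, against 86.8, 78.9, 75.5, 80.3 and 75.5 TPM in late wild type. The ORE50/ORC4 libraries lay below the wild-type libraries except for replicate 2, and the ORC4 libraries overlapped wild type. Syx1A fell in ORE50/ORC4 with a log2 change of -0.30 (SE 0.075, edgeR adjusted p = 0.00499) and was at 0.09 in ORC4 (SE 0.074, edgeR adjusted p = 0.39). The Syx1A gene lies wholly inside the span of eIF4EHP on the same strand, and its counts were fractional in 15 of 16 libraries. With the counts of both genes summed, the ORE50/ORC4 change was -0.14 (edgeR adjusted p = 0.135) and no longer passed the test.

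Snap25 was the only member called higher in either mutant. It was at 0.89, 1.09, 1.01 and 0.95 TPM in ORE50/ORC4 replicates 1 to 4, and at 1.07, 0.98, 0.96 and 1.07 TPM in ORC4, against 0.94, 0.89, 0.76, 0.75 and 0.78 TPM in late wild type. All ORC4 libraries lay above all wild-type libraries, while ORE50/ORC4 overlapped wild type in TPM. Snap25 rose in ORE50/ORC4 by 0.35 on the log2 scale (SE 0.071, edgeR adjusted p = 0.00136) and in ORC4 by 0.25 (SE 0.071, edgeR adjusted p = 0.0174). The calls were lost with limma on log2(TPM + 1), at 0.12 in ORE50/ORC4 (limma adjusted p = 0.121) and 0.15 in ORC4 (limma adjusted p = 0.0898). The ORC4 call was also lost within the deep libraries (0.20, edgeR adjusted p = 0.0928) and without ORC4 replicate 1 (0.21, edgeR adjusted p = 0.0643). Snap25 counts were fractional in 15 of 16 libraries, although the only gene overlapping its span, lncRNA:CR45159, had hardly any counts. Some of its reads were thus shared with sequence elsewhere, and their part in its values was not tested.

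Of the regulators of the SNAREs, Syt1 was called lower in ORE50/ORC4 and cpx in neither mutant. Syt1 (FBgn0004242, 2L, 2772327 to 2799979, minus strand) was at 19.1, 26.9, 23.9 and 23.8 TPM in ORE50/ORC4, and at 29.5, 27.0, 29.4 and 27.9 TPM in ORC4, against 32.1, 29.1, 29.8, 29.3 and 28.8 TPM in late wild type. All ORE50/ORC4 libraries lay below all libraries of the other late groups. Syt1 fell in ORE50/ORC4 with a log2 change of -0.26 (SE 0.081, edgeR adjusted p = 0.0143) and was at -0.13 in ORC4 (edgeR adjusted p = 0.24). Against the shallow wild-type replicates 5 and 6 the ORE50/ORC4 value was -0.26 with an edgeR adjusted p = 0.0735, and without ORE50/ORC4 replicates 1 and 2 it was -0.15 (edgeR adjusted p = 0.121).

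The values of cpx ranged more widely. cpx (FBgn0041605, 3R, 4280221 to 4304604, plus strand) ran from 37.9 to 53.3 TPM in ORE50/ORC4 and from 52.6 to 64.1 in ORC4, against 56.7 to 67.0 in late wild type. The highest ORE50/ORC4 library was lower than the lowest wild-type library, and the log2 fold change was -0.24 (SE 0.11, edgeR adjusted p = 0.0808), while ORC4 was at -0.11 (edgeR adjusted p = 0.47). The ORE50/ORC4 value passed the threshold without ORE50/ORC4 replicate 3, at -0.31 (edgeR adjusted p = 0.0269), with DESeq2, at -0.26 (DESeq2 adjusted p = 0.0442), and with limma on log2(TPM + 1), at -0.33 (limma adjusted p = 0.0165). The span of cpx holds Nepl11, a gene on the opposite strand that rose by 2.09 in ORE50/ORC4 (edgeR adjusted p = 0.0245) and by 2.39 in ORC4 (edgeR adjusted p = 0.0206) on the log2 scale. Its counts came to 7.16% of those of cpx in ORE50/ORC4, 8.38% in ORC4 and 1.34% in late wild type.

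The priming factor unc-13 was lower in both mutants, by less than nSyb. unc-13 (FBgn0025726, 4, 867824 to 912331, minus strand) was at 14.8, 22.9, 18.7 and 18.1 TPM in ORE50/ORC4 replicates 1 to 4, and at 24.4, 25.1, 24.6 and 26.5 TPM in ORC4, against 33.0, 33.4, 32.0, 31.4 and 30.7 TPM in late wild type. The 3 groups did not overlap. unc-13 fell in ORE50/ORC4 with a log2 change of -0.71 (SE 0.080, 1.63-fold lower, edgeR adjusted p = 1.39e-05) and in ORC4 with -0.42 (SE 0.079, 1.33-fold lower, edgeR adjusted p = 0.00152). Within a depth class the values were -0.70 in ORE50/ORC4 (edgeR adjusted p = 0.000656) and -0.43 in ORC4 (edgeR adjusted p = 0.00666).

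The unc-13 span contains CR43361, a pseudogene on the opposite strand that touches unc-13 exons. CR43361 was listed at 0 in all ORE50/ORC4, all ORC4 and all early wild-type libraries, against 6.74, 4.67, 10.2, 0.35 and 6.18 TPM in late wild-type replicates 1, 2, 3, 5 and 6. Its counts were 1.17% of those of unc-13 in late wild type. With the counts of all genes in the span summed, unc-13 was at -0.72 in ORE50/ORC4 and -0.43 in ORC4 on the log2 scale, and both still passed the test.

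The active zone scaffolds brp and Rim were not called against wild type. brp (FBgn0259246, 2R, 9503765 to 9541565, plus strand, overlapping no other gene) averaged 19.7 ± 5.3 TPM in ORE50/ORC4 and 23.2 ± 0.95 in ORC4 (SD, n = 4 each), against 21.7 ± 1.2 in late wild type (SD, n = 5). Its log2 fold change was -0.07 in ORE50/ORC4 (edgeR adjusted p = 0.573) and 0.03 in ORC4 (edgeR adjusted p = 0.841). ORE50/ORC4 replicate 2 was the highest brp value of all late libraries and replicate 1 the lowest, and without replicate 2 the ORE50/ORC4 value was -0.20 (edgeR adjusted p = 0.0446). Rim (FBgn0053547, 3R, 17872748 to 17916578, minus strand) was at 7.78, 13.1, 8.78 and 9.11 TPM in ORE50/ORC4, and at 12.8, 12.5, 13.8 and 12.9 TPM in ORC4, against 11.8, 11.0, 11.0, 9.01 and 9.41 TPM in late wild type. All ORC4 libraries lay above all wild-type libraries, with a log2 change of 0.26 (SE 0.10, edgeR adjusted p = 0.0684), and ORE50/ORC4 was at -0.03 (edgeR adjusted p = 0.797). The ORC4 value passed the threshold when ORE50/ORC4 replicate 1 (edgeR adjusted p = 0.0416) or replicate 2 (edgeR adjusted p = 0.0267) was left out of the shared fit, or all ORE50/ORC4 libraries were (edgeR adjusted p = 0.0317).

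The transmitter markers went apart: Gad1 was lower in both mutants and VGlut was called in neither. Gad1 (FBgn0004516, 3L, 4074077 to 4088744, minus strand) was at 12.6, 17.4, 16.9 and 17.4 TPM in ORE50/ORC4 replicates 1 to 4, and at 22.3, 19.7, 24.2 and 19.1 TPM in ORC4, against 24.5, 25.4, 27.5, 31.0 and 30.8 TPM in late wild type. The 3 groups did not overlap, although the highest ORC4 library nearly reached the lowest wild-type library. Gad1 fell in ORE50/ORC4 with a log2 change of -0.71 (SE 0.13, 1.63-fold lower, edgeR adjusted p = 0.000629) and in ORC4 with -0.45 (SE 0.13, 1.36-fold lower, edgeR adjusted p = 0.0182).

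Wild-type Gad1 itself was higher in the shallow replicates 5 and 6 than in replicates 1, 2 and 3. Within a depth class the Gad1 value was -0.89 for ORE50/ORC4 (edgeR adjusted p = 0.000957) and -0.32 for ORC4, which did not pass (edgeR adjusted p = 0.0992). The ORC4 call was also lost without ORC4 replicate 2 (-0.43, edgeR adjusted p = 0.0535) and without ORC4 replicate 4 (-0.38, edgeR adjusted p = 0.0569). Gad1 overlaps CG14989 on the opposite strand, whose counts were 160% of those of Gad1 in late wild type. With both summed the change was -0.32 in each mutant and passed the test. CG14989 alone was at -0.24 in ORC4 (edgeR adjusted p = 0.00665) and -0.11 in ORE50/ORC4 (edgeR adjusted p = 0.125). The sum mixes both genes and cannot show whether Gad1 itself was lower.

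VGlut (FBgn0031424, 2L, 2400295 to 2410662, plus strand) ran from 16.2 to 20.3 TPM in ORE50/ORC4 and from 16.9 to 19.1 in ORC4, against 17.4 to 18.5 in late wild type. The 3 groups overlapped, with a log2 change of 0.06 in ORE50/ORC4 (SE 0.061, edgeR adjusted p = 0.392) and -0.05 in ORC4 (SE 0.061, edgeR adjusted p = 0.579). Both signs turned with limma on log2(TPM + 1), at -0.02 in ORE50/ORC4 and 0.01 in ORC4. The deposited length of VGlut is 19003 bases, while the annotated span is 10368, a length that lowers its TPM against one taken over the annotated span.

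**Figure D3:**
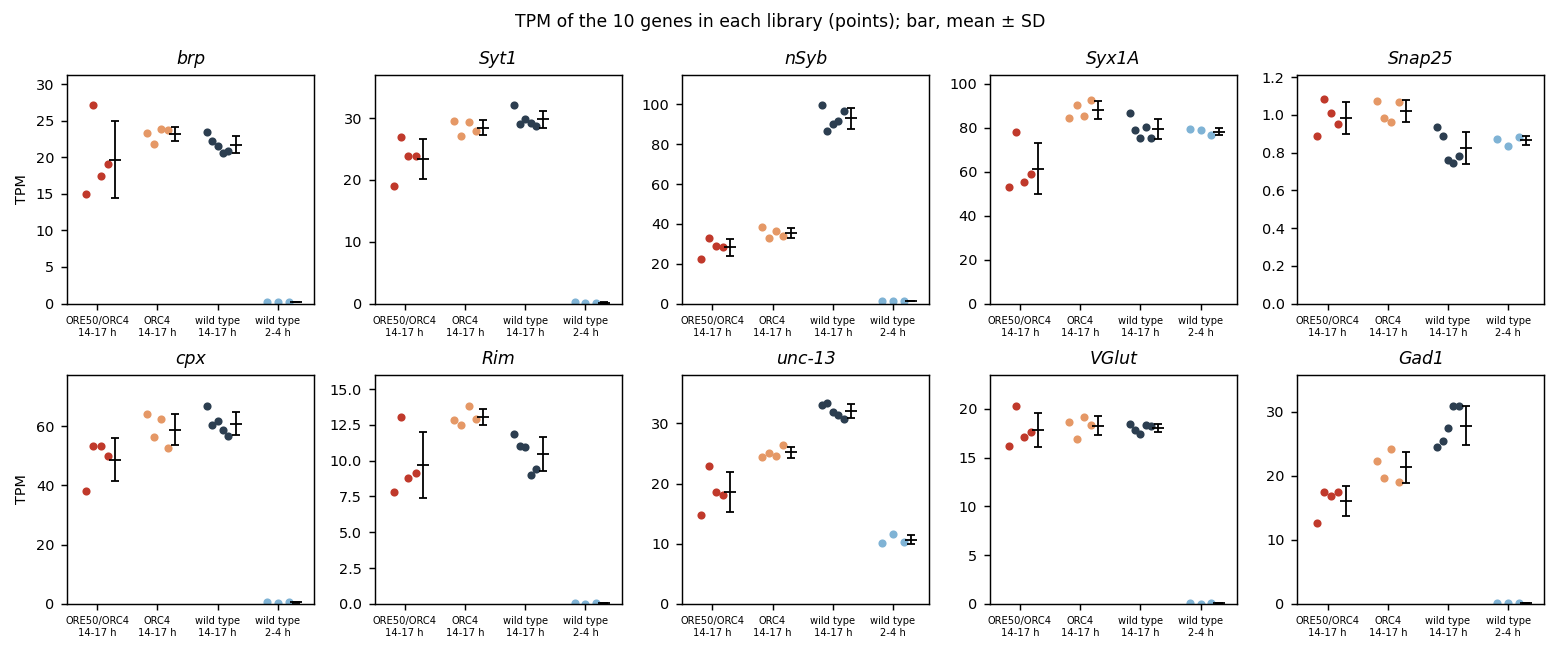
TPM of each of the 10 genes (y axes starting at 0, 1 panel per gene), 1 point per library, in ORE50/ORC4, ORC4 and wild type of 14 to 17 h and wild type of 2 to 4 h, with the mean ± SD of each group beside its points. In both mutants nSyb, unc-13 and Gad1 lie below every wild-type library of the same age, and VGlut overlaps in the 3 late groups.

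Between the mutants, 3 members were lower in ORE50/ORC4 than in ORC4 and 0 were higher, where 17.4% of all genes were called lower and 19.9% higher. Every ORE50/ORC4 library was shallow and every ORC4 library deep, so a term for depth class in the fit rests on the late wild-type libraries, which hold both classes. Syx1A differed most, with a log2 change of -0.38 (SE 0.078, edgeR adjusted p = 0.00232), and the ORE50/ORC4 libraries lay below the ORC4 libraries. With depth class as a covariate Syx1A was at -0.41 and passed (edgeR adjusted p = 0.0322). Summed with eIF4EHP it was at -0.17 and did not pass (edgeR adjusted p = 0.108). unc-13 was at -0.29 (SE 0.083, edgeR adjusted p = 0.0151), and with that covariate it was at -0.29 and did not pass (edgeR adjusted p = 0.137). Gad1, uncalled without the covariate, passed with it at -0.59 (edgeR adjusted p = 0.0373). Rim was at -0.29 (SE 0.11, edgeR adjusted p = 0.0491), a call lost in 17 of 26 alternatives, among which one fit is counted more than once. With the depth covariate Rim was at -0.07 (edgeR adjusted p = 0.772). The call was also lost on leaving out any one late wild-type library, any of ORC4 replicates 1, 2 and 3, or any of ORE50/ORC4 replicates 1, 3 and 4 (highest edgeR adjusted p of these = 0.138). brp, at -0.10 (edgeR adjusted p = 0.477), passed without ORE50/ORC4 replicate 2, at -0.23 (edgeR adjusted p = 0.04), and VGlut, at 0.11 (edgeR adjusted p = 0.189), passed when summed with the overlapping CG18641, at 0.17 (edgeR adjusted p = 0.0461).

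nSyb did not differ between the mutants beyond the test, at -0.18 (SE 0.099, edgeR adjusted p = 0.17) or, with the depth covariate, -0.28 (edgeR adjusted p = 0.199), although every ORE50/ORC4 library lay below every ORC4 library in TPM. Gad1 was at -0.26 (SE 0.14, edgeR adjusted p = 0.151) and Syt1 at -0.13 (SE 0.085, edgeR adjusted p = 0.229), also without overlap. In all, 5 members did not overlap on the low side, where the background was 20.2%, and 0 on the high side, where it was 7.29%. With limma on log2(TPM + 1) these 3 passed as well, nSyb at -0.32 (limma adjusted p = 0.0256), but that scale moved the median of all genes to -0.09 from 0.03 in the edgeR fit. ORE50/ORC4 replicate 1 was the lowest of its group for 10 of 10 members, and replicate 2 the highest for 8. The summed neuron markers were likewise lowest in replicate 1, at 165 TPM, and highest in replicate 2, at 235 TPM; their part in these differences was not tested. Without replicates 1 and 2 the log2 fold change against wild type was -1.53 for nSyb (edgeR adjusted p = 2.53e-06), -0.64 for unc-13 (edgeR adjusted p = 2.79e-05) and -0.53 for Gad1 (edgeR adjusted p = 0.0133).

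In wild-type embryos of 14 to 17 h set against those of 2 to 4 h, 8 of the 10 members rose, against a background of 48.1% of all genes called higher and 41.8% called lower. The 14 to 17 h libraries lay above all 2 to 4 h libraries for the same 8 members, where the background was 47.1%. The log2 fold changes were 8.15 for VGlut, 8.02 for Gad1, 7.55 for Rim, 7.50 for Syt1, 6.85 for cpx, 6.78 for brp and 6.19 for nSyb, with SEs from 0.13 to 0.35 and a highest edgeR adjusted p = 1.75e-08. Of all genes tested, 14.3% were called with a log2 change of at least 6, and the median of all genes was 0.18. VGlut had 19, 3 and 18 estimated counts in early replicates 1 to 3, Gad1 27, 6 and 19, and Rim 51, 5 and 27, so the early values of these genes rest on few counts.

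The other 3 members had at least 1210 estimated counts in each library of 2 to 4 h, where the genes above had at most 214. unc-13 averaged 32.1 ± 1.1 TPM at 14 to 17 h (SD, n = 5) and 10.7 ± 0.82 at 2 to 4 h (SD, n = 3), and rose by 1.60 on the log2 scale (SE 0.078, edgeR adjusted p = 2.41e-08). Syx1A averaged 79.4 ± 4.7 TPM at 14 to 17 h and 78.2 ± 1.5 at 2 to 4 h (SD, n = 5 and 3), with a log2 change of 0.03 (SE 0.083, edgeR adjusted p = 0.74). Snap25 averaged 0.82 ± 0.085 TPM at 14 to 17 h and 0.86 ± 0.025 at 2 to 4 h (SD, n = 5 and 3), with -0.07 (SE 0.093, edgeR adjusted p = 0.507). Syx1A and Snap25 overlapped between the stages. Both values move with the treatment of the data: summed with eIF4EHP, Syx1A rose by 0.29 (edgeR adjusted p = 0.0124), and against wild-type replicates 5 and 6 alone Snap25 fell by 0.28 (edgeR adjusted p = 0.00108).

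**Figure D4:**
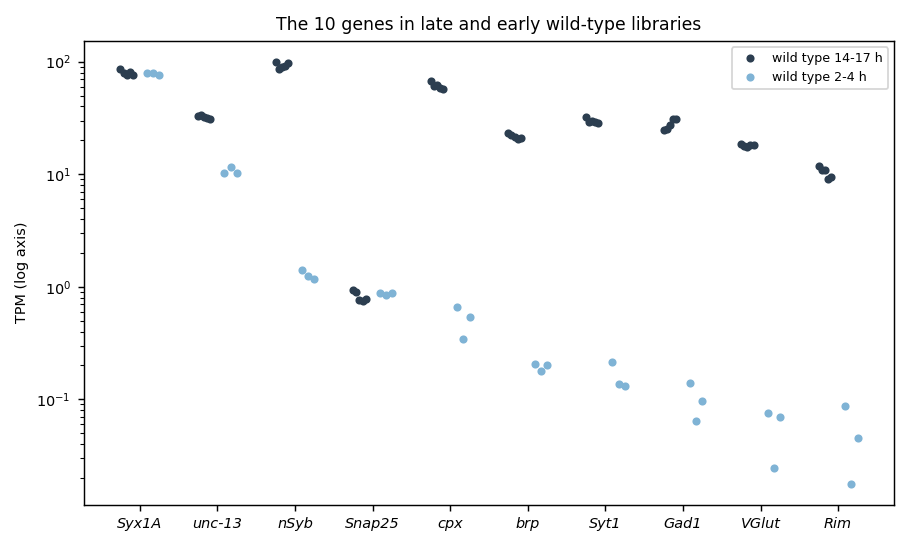
TPM (log axis) of the 10 genes in wild-type libraries of 14 to 17 h and of 2 to 4 h, 1 point per library, with the genes in the order of their mean early TPM. That TPM is scaled by the whole gene span, and the order differs from that on the exonic scale. For 8 genes all libraries of 14 to 17 h lie above all libraries of 2 to 4 h, and Syx1A and Snap25 overlap between the ages.

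Other genes of the release pathway were read from the same fit, and their counts are set against the same background of 27.0% of all genes called lower and 27.0% higher in ORE50/ORC4, and 17.2% lower and 15.5% higher in ORC4. Of 16 partners of neuronal release, 8 were lower and 4 higher in ORE50/ORC4, and 3 were lower and 0 higher in ORC4. The 8 lower in ORE50/ORC4 are 50% of the list, above the background, while the 4 higher there (25%) and the 3 lower in ORC4 (18.8%) are near it. Syt12, a synaptotagmin family gene that overlaps no other, was lower in both, at -3.19 in ORE50/ORC4 (edgeR adjusted p = 4.26e-09) and -2.80 in ORC4 (edgeR adjusted p = 7.41e-09). Its level averaged 0.77 TPM in ORC4 and 5.17 TPM in late wild type. Sytalpha was at -1.02 in ORE50/ORC4 and -1.07 in ORC4, and Syt14 at -0.71 in ORE50/ORC4 and -0.73 in ORC4, with edgeR adjusted p of at most 0.000309; each overlaps another gene. Higher in ORE50/ORC4 were Nsf2, an ATPase that takes SNARE complexes apart, at 0.42 (edgeR adjusted p = 0.000277), and Syt7 at 0.32 (edgeR adjusted p = 0.000672).

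Of 8 active zone genes, 5 were lower and 1 higher in ORE50/ORC4, and 2 were lower and 1 higher in ORC4. The share lower was 62.5% in ORE50/ORC4, above the 27.0% of all genes, and 25% in ORC4, where 2 genes of 8 are close to the background of 17.2%. The calcium channel subunit cac, which opens beside docked vesicles, fell by 1.28 in ORE50/ORC4 (edgeR adjusted p = 9.6e-07) and by 0.97 in ORC4 (edgeR adjusted p = 1.36e-05) on the log2 scale. Liprin-alpha, a scaffold protein, rose by 0.42 in ORE50/ORC4 (edgeR adjusted p = 0.00011) and by 0.41 in ORC4 (edgeR adjusted p = 0.000221). Neither overlaps another gene.

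Of 15 vesicle recycling genes, 4 were lower and 2 higher in ORE50/ORC4, and 4 were lower and 1 higher in ORC4. The share lower was 26.7% in both, which in ORE50/ORC4 equals the background of 27.0% and in ORC4 stands beside 17.2%. stnA and stnB, the stoned genes of vesicle endocytosis, had identical values because they are read from 1 locus, and count as 2 of the 4 each time. They were at -1.35 in ORE50/ORC4 (edgeR adjusted p = 4.72e-07) and -1.01 in ORC4 (edgeR adjusted p = 6.92e-06). The clathrin light chain Clc rose by 0.44 in ORE50/ORC4 (edgeR adjusted p = 8.83e-05), and the heavy chain Chc by 0.27 in ORC4 (edgeR adjusted p = 0.0333).

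Of 18 genes of transmitter synthesis and transport, 7 were lower in ORE50/ORC4 and 5 in ORC4, and 0 were higher in either. The share lower was 38.9% in ORE50/ORC4 and 27.8% in ORC4, beside 27.0% and 17.2% of all genes, and the 0 higher stand beside 27.0% and 15.5%. Trhn, the neuronal tryptophan hydroxylase of serotonin synthesis, was at -0.88 in ORE50/ORC4 (edgeR adjusted p = 0.000103) and -0.92 in ORC4 (edgeR adjusted p = 8.41e-05). Ddc and Tdc2, enzymes of dopamine, serotonin and octopamine synthesis, were lower in ORE50/ORC4, at -0.93 (edgeR adjusted p = 0.0205) and -1.04 (edgeR adjusted p = 0.0254). In ORC4 they were at -0.28 and 0.008 and were not called (edgeR adjusted p = 0.509 and 0.989). Trhn, Ddc and Tdc2 each overlap another gene, and the counts of Tdc2 were fractional in 13 of 16 libraries. VGAT, which loads the GABA made by Gad1 into vesicles and is named here after its values were seen, was at -0.11 in ORE50/ORC4 (edgeR adjusted p = 0.217) and 0.00013 in ORC4 (edgeR adjusted p = 1).

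Of 21 SNAREs of general membrane traffic, 1 was lower and 13 were higher in ORE50/ORC4, with a median log2 fold change of 0.33, and 1 was lower and 7 higher in ORC4, with a median of 0.10. The share higher was 61.9% in ORE50/ORC4 and 33.3% in ORC4, beside 27.0% and 15.5% of all genes, and the share lower was 4.76% in each, beside 27.0% and 17.2%. Syx17, a syntaxin of autophagosome fusion, rose by 0.94 in ORE50/ORC4 (edgeR adjusted p = 1.97e-06) and by 0.49 in ORC4 (edgeR adjusted p = 0.000703). Membrin, a SNARE of the Golgi, rose by 0.81 in ORE50/ORC4 (edgeR adjusted p = 0.000228) and by 0.51 in ORC4 (edgeR adjusted p = 0.00903). The spans of both overlap another gene. Between the mutants, 2 of these 21 were lower and 10 higher in ORE50/ORC4, where the background was 17.4% lower and 19.9% higher, and the median was 0.27. Among the 10 higher were Bet1 at 0.46 (edgeR adjusted p = 0.00579), Syx17 at 0.45 (edgeR adjusted p = 0.00172) and Sec22 at 0.42 (edgeR adjusted p = 0.000811). Of the 2 lower, Syx7 was at -0.53 (edgeR adjusted p = 0.00139).

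Markers of neurons as a cell type were read from the same fit. Of 8, 2 were lower and 0 higher in each mutant: nrv3, a neuronal sodium pump subunit, at -0.52 in ORE50/ORC4 (edgeR adjusted p = 0.000686) and -0.55 in ORC4 (edgeR adjusted p = 0.000875), with futsch in ORE50/ORC4 at -0.38 (edgeR adjusted p = 0.022) and Rbp9 in ORC4 at -0.43 (edgeR adjusted p = 0.000348). elav, the pan-neuronal RNA-binding protein, was at 0.08 in ORE50/ORC4 (edgeR adjusted p = 0.641) and -0.34 in ORC4 (edgeR adjusted p = 0.0659). The 2 of 8 lower are 25% of the list, near the background of 27.0% in ORE50/ORC4 and beside 17.2% in ORC4. The median of the 8 was -0.05 in ORE50/ORC4 and -0.20 in ORC4.

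**Figure D5:**
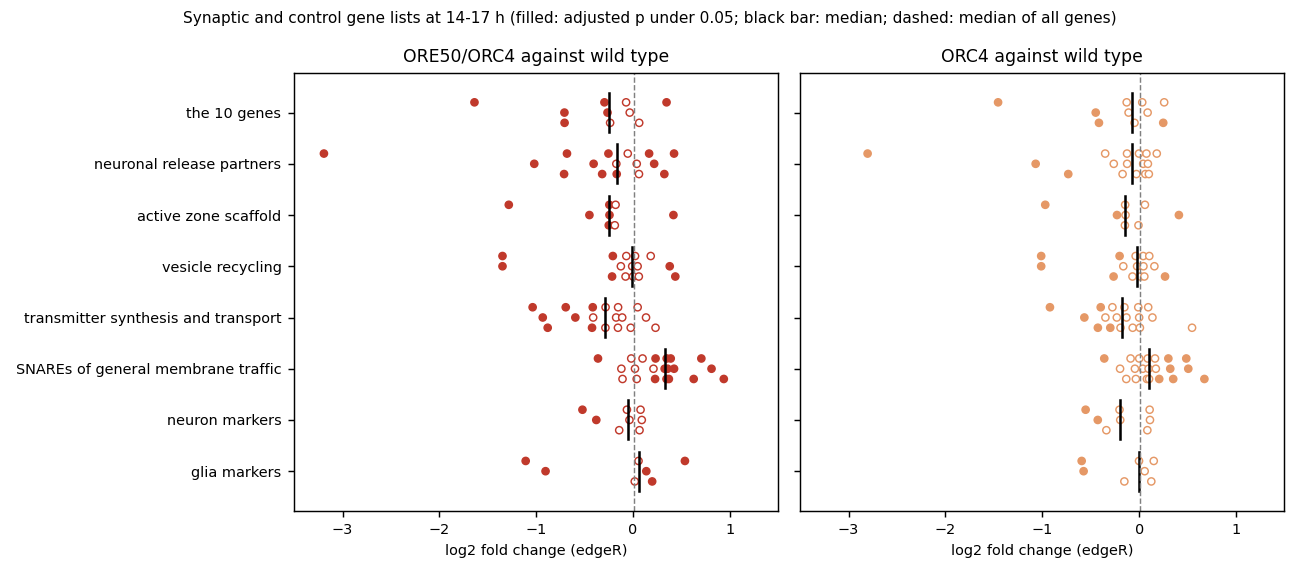
Log2 fold change against late wild type (x axis) of every tested gene in lists of synaptic and marker genes (rows), 1 point per gene, ORE50/ORC4 on the left and ORC4 on the right; filled points passed an edgeR adjusted p under 0.05, black bars are list medians and the dashed line is the median of all genes. The SNAREs of general membrane traffic have a median of 0.33 in ORE50/ORC4 and 0.10 in ORC4, while that of the 10 synaptic genes is -0.25 in ORE50/ORC4 and -0.08 in ORC4.

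Among 8838 other genes with enough counts, the late profile over 13 libraries most like the mean profile of the 10 members belonged to dpr11, nAChRalpha4, ClpX, rdgB and Atpalpha. Their root mean square differences in centred log2(TPM + 1) were 0.034, 0.056, 0.057, 0.060 and 0.060. dpr11 encodes a neuronal immunoglobulin protein and nAChRalpha4 a nicotinic acetylcholine receptor subunit. The likeness covers the late libraries only. From 2 to 4 h to 14 to 17 h in wild type, nAChRalpha4 fell by 0.64 on the log2 scale (edgeR adjusted p = 9.73e-06), while dpr11, ClpX, rdgB and Atpalpha rose. ClpX was not called in ORC4 against wild type, at -0.16 (edgeR adjusted p = 0.143). dpr11 averaged 1.66 ± 0.32 TPM in ORE50/ORC4 and 2.16 ± 0.13 in ORC4 (SD, n = 4 each), against 2.56 ± 0.15 in late wild type (SD, n = 5).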

How the data were processed

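The authors deposited abundances of every gene in each library, as estimated counts and as TPM, which per the file headers is scaled by the effective length listed beside it. The submitters' processing notes name CASAVA 1.8.2, kallisto and dm6, with no role or order; the annotation, other versions and strandedness are not given in the sources used here. Symbols and 1-based coordinates were looked up in the Ensembl annotation of BDGP6 (17625 of 17753 genes, 99.3%). The listed length was the genomic span with introns for 99.3% of matched genes, so reads in a span shared by genes can go to either.

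Rounded estimated counts, as deposited, entered edgeR 4.0.16 in R 4.3.3 (quasi-likelihood test, TMM scaling, filterByExpr by group with a minimum of 10 counts, no covariate). The 13 late libraries (3 groups) were fitted together, and the 8 wild-type libraries in a fit of their own. The p-values were adjusted by Benjamini-Hochberg over all 11431 or 11636 genes tested, and a gene was called at an adjusted p under 0.05. The SE of a log2 fold change was taken from the F statistic. Groups came from the sample titles, and the wild-type titles run 1, 2, 3, 5 and 6. Within-group pairs of libraries differed by more than sampling noise (chi-square per degree of freedom 5.29 to 113), so none was a copy of another. Each was counted as 1 replicate, although this cannot show that they were separate collections. The closest pairs were late wild-type replicates 5 and 6 (5.29), early wild-type replicates 1 and 3 (6.9) and ORE50/ORC4 replicates 3 and 4 (8.84). The scripts were tested on simulated data. Alternatives were limma 3.58.1 on log2(TPM + 1) or log2(TPM + 0.1), DESeq2 1.42.0, RLE scaling, other filters, other sets of libraries, a depth covariate, thinning, a replicate block and summing overlapping genes.

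All 10 members are named. From each gene list, the rule names at most 3 called genes per direction and comparison, those with the greatest change and a mean of at least 100 counts in the higher group, and the text gives a selection of these. Overlapping genes with that many counts are named too, as are the 5 genes nearest in profile. The members and lists were chosen with earlier results of these data known. Levels are mean ± SD over the libraries of a group where no single values are given.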

Additional observations from a re-analysis of the deposited data

Results flagged for a closer look

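Gad1 in ORE50/ORC4 replicate 1 lay far from the other libraries of its group, at 12.6 TPM against 17.4, 16.9 and 17.4 TPM in replicates 2, 3 and 4. Its gap to the nearest library was 0.883 of the range of the group, above the limit of 0.829 for 4 libraries. It was 1 of 30 groups of 4 or 5 libraries examined over the members, and chance alone passes such a limit in about 1 group of 20. Replicate 1 was the lowest of the ORE50/ORC4 libraries for all 10 members. Without ORE50/ORC4 replicates 1 and 2, Gad1 was still lower than in wild type, with a log2 fold change of -0.53 (edgeR adjusted p = 0.0133).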

How the results depend on the processing

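Of 1032 recomputed member values, 949 kept their direction and their side of the threshold, 41 lost the call, 20 gained one and 22 changed sign. These totals count some fits more than once. Between the mutants, the fit of only the groups compared is also the fit without the replicate block. For the stages, the fit with wild-type replicates 1, 2 and 3 only is also the fit without the block. nSyb ran from -1.73 to -1.53 in ORE50/ORC4 and from -1.51 to -1.36 in ORC4 over the alternatives, and nSyb and unc-13 were called lower against wild type in every one. The causes of the changes below were not tested.

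In ORC4 against wild type, the count of members called higher, 1 in the reported fit, was 0 with limma at either pseudocount, 0 with wild-type replicates 1, 2 and 3 only, 0 with the depth covariate, 2 with only the groups compared, 2 without ORE50/ORC4 replicates 1 and 2 together (chosen after seeing the data), and 0 to 2 on leaving out single libraries. With wild-type replicates 5 and 6 only, 2378 genes were called, against 3734. In ORE50/ORC4 against wild type, limma called 0 members higher at either pseudocount. In ORE50/ORC4 against ORC4, limma called 6 members lower at either pseudocount. With log2(TPM + 1) it moved the median of all genes from 0.034 to -0.091 and called 2673 genes lower and 846 higher. With log2(TPM + 0.1) it called 2706 lower and 830 higher, where edgeR called 1992 lower and 2271 higher. For the stages, 1 member was lower with wild-type replicates 5 and 6 only.

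Same-numbered libraries had correlations of their deviations from -0.126 to 0.379. Against wild type, replicates 2 and 3 of each mutant correlated best with their own number (0.163 to 0.273) and replicate 1 did not, and no label ties the numbers to a shared day or batch, so the numbers were not used as pairs; whether some libraries share a source is not known. With a replicate block, 3800 genes were called in ORC4 and 4456 in ORE50/ORC4 against wild type, and 3118 and 4110 in the same libraries with no block. In ORE50/ORC4, 3 members were then lower and 0 higher, with or without the block; in ORC4, 0 were higher without it in these libraries.

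The values that changed sign were not called, nor were those they changed from. VGlut in ORC4 against wild type was 0.0136 and 0.0142 with limma at the pseudocounts of 1 and 0.1, 0.0185 with the replicate block and 0.0200 in the same libraries without it. VGlut in ORE50/ORC4 against wild type was -0.0214 and -0.0227 with limma. Rim in ORE50/ORC4 against wild type was 0.1083 with replicates 5 and 6 only, 0.1026 with the depth covariate and -0.1472 to 0.0474 on leaving out single libraries, over which brp ran from -0.1993 to 0.0287. Between the mutants, Snap25 was -0.0265 and -0.0489 and VGlut -0.0350 and -0.0369 with limma, cpx was 0.0302 without ORE50/ORC4 replicates 1 and 2, and Gad1 was 0.0030 when summed with overlapping genes. Syx1A between the stages was -0.0368 with replicates 1, 2 and 3 only, which is also the fit without the block. It was -0.1068 with replicates 5 and 6 only, -0.0376 with the replicate block and -0.0127 to 0.0789 on leaving out single libraries.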

Other observations

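Markers of other cell types were read from the same fits, at an edgeR adjusted p under 0.05 with backgrounds of 27.0% lower and 27.0% higher in ORE50/ORC4 and 17.2% lower and 15.5% higher in ORC4. Of 7 glia markers, 2 were lower and 3 higher in ORE50/ORC4, and 2 were lower and 0 higher in ORC4. Gs2, the glutamine synthetase that clears transmitter glutamate, was at -1.11 in ORE50/ORC4 (edgeR adjusted p = 0.000531) and -0.57 in ORC4 (edgeR adjusted p = 0.039). Mdr65, a transporter of the blood-brain barrier, was at -0.90 in ORE50/ORC4 (edgeR adjusted p = 2.39e-05) and -0.59 in ORC4 (edgeR adjusted p = 0.00101). The 3 higher in ORE50/ORC4 were wrapper at 0.54 (edgeR adjusted p = 0.000659), moody at 0.20 (edgeR adjusted p = 0.0452) and nrv2 at 0.14 (edgeR adjusted p = 0.0329). The median of the 7 was 0.06 in ORE50/ORC4 and -0.001 in ORC4. Of 8 muscle markers, 1 was lower and 2 higher in ORE50/ORC4, and 2 were lower and 0 higher in ORC4.

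Of 3 midgut markers, 3 were higher in ORE50/ORC4 and 1 in ORC4, with mex1 at 0.89 in ORE50/ORC4 (edgeR adjusted p = 0.000135). Of 3 epidermis markers, 2 were higher and 1 lower in ORE50/ORC4, and 2 were higher in ORC4. knk, which acts in cuticle formation, was at 1.44 in ORE50/ORC4 (edgeR adjusted p = 1.19e-05) and 1.08 in ORC4 (edgeR adjusted p = 0.000194). The 1 lower in ORE50/ORC4 was grh, at -0.24 (edgeR adjusted p = 0.016). Of 4 hemocyte markers, 2 were lower and 0 higher in ORE50/ORC4, and 2 were lower and 1 higher in ORC4, with NimC1, a phagocytosis receptor, at -1.05 in ORE50/ORC4 (edgeR adjusted p = 1.88e-05) and -0.57 in ORC4 (edgeR adjusted p = 0.00238). The 1 higher in ORC4 was srp, at 0.41 (edgeR adjusted p = 0.00173). Of 4 germline markers, all of which overlap another gene, 4 were lower in ORE50/ORC4 and 3 in ORC4. Their summed level was 8.87, 40.5, 7.60, 18.5 and 8.63 TPM in late wild-type replicates 1, 2, 3, 5 and 6, so replicates 2 and 5 stood high. It was 2.9 to 4.5 TPM in ORE50/ORC4, below every wild-type library, and 5.4 to 8.6 TPM in ORC4, which overlapped wild type.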
